A study of Rattus norvegicus with 6 samples.

Results

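The TNF superfamily was followed in 2 kinds of cultured precursor cells from newborn rats. Its members were chosen by gene symbol: the genes named Tnfsf or Tnfrsf with a number, Tnf, Lta, Ltb, Ltbr, Fas, Faslg, Cd27, Cd40, Cd40lg, Cd70, Eda, Edar, Eda2r and the adaptor genes Traf1 to Traf6, while Ngfr, a relative with its own ligands, was left out. Of 18166 genes with a probe set of their own on the arrays, 43 were members, namely 15 ligands, 24 receptors and 4 TRAF adaptors. Tnfsf8, Tnfsf9, Tnfsf12, Tnfrsf22, Traf1 and Traf5 had no probe set with a single gene symbol and were not analysed here. All 43 members were tested, with no filter on low values.

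Cells came from wild-type Sprague-Dawley pups. SKPs (skin-derived precursors) were isolated from back skin and grown as spheres, re-plated from secondary spheres, with FGF2 at 40 ng/ml, EGF at 20 ng/ml and B27. NSCPs (nerve-derived Schwann cell precursors) were isolated from sciatic nerve and grown on laminin and poly-D-lysine with neuregulin-1β at 25 ng/ml, forskolin at 5 μM, which raises cAMP, and N2. Each kind had 3 independent isolates with 1 array each, and the labels name no TNF family ligand among the agents. Tissue, medium and growth form differ together between the groups and cannot be told apart. The labels do not say whether an isolate pooled several pups, and they run the recipes of both media together, so that B27 is read here as part of the SKP medium. The study concerns signals that nerve-derived precursors send to other cells during digit tip regeneration.

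Ligands of the TNF superfamily are mostly membrane proteins that act as trimers, many of which are cut from the surface into a soluble form. Their receptors carry cysteine-rich repeats outside the cell; some hold a death domain that recruits caspase-activating adaptors, others bind TRAF proteins that lead to NF-κB and MAP kinases, and a few are decoys that only capture ligand. In skin the ectodysplasin branch directs the formation of hair follicles and glands, and in injured nerve Tnf is one of the early inflammatory signals.

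Values are log2 expression, so a difference of 1 is a 2-fold change. A member is called higher or lower where the limma fit over all genes gave an adjusted p under 0.05. The background level, 5.32, was set from 227 odorant and vomeronasal receptor genes, of which 95% had means at or under it, and a group mean at or under it is written as within background. From 67.3% to 69.1% of genes lay above it on each array, and Pearson correlations across genes were 0.984 to 0.993 within a group and 0.872 to 0.888 between groups.

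Labels were checked against markers. In NSCPs 9 of 10 measured Schwann lineage markers were higher, with Ngfr, S100b and Sox10 up by 2.19, 4.35 and 3.10. All 10 dermal fibroblast markers were lower in NSCPs, but Col1a1, Col1a2 and Col3a1 still stood at 11.80, 11.85 and 10.69 there. SKP cultures also held macrophage and leukocyte markers: 14 of 15 were lower in NSCPs, among them Lyz2, Laptm5 and Fcer1g, and the log2 of their summed signal was 14.16 to 15.07 in SKPs against 9.09 to 9.18 in NSCPs. Of the T cell markers 1 of 8 was called, of the B cell markers 1 of 4, of the NK cell markers 3 of 5 and of the mast cell markers 1 of 5, each of them higher in NSCPs. The called NK and mast cell markers were within background in both cultures. Cd3g, the called T cell marker, had means of 3.58 in SKPs and 5.98 in NSCPs, and Blk, the called B cell marker, 4.94 and 5.38. Both were within background in SKPs and above it in NSCPs. Of all genes 43.7% were called, 25.2% higher and 18.6% lower. In these mixed RNAs, fewer cells of a type and less RNA per cell cannot be told apart.

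Between the cultures 22 of the 43 members (51.2%) differed, 7 higher and 15 lower in NSCPs, against 43.7% of all genes called, 25.2% higher and 18.6% lower. The members called lower made up 34.9% of all members and those called higher 16.3%. With each array centred on its median, which moved the median difference of all genes from 0.14 to 0.35, the split was 13 higher and 14 lower. At least 2-fold differences were found for 4 members upward (9.30%, against 7.45% of all genes) and 8 downward (18.6%, against 9.98%). SKP and NSCP arrays were fully separate in 26 members, or 60.5%, close to the 56.6% of all genes. Of the members, 25 were above background in both cultures, 2 in SKPs only, 4 in NSCPs only and 12 in neither. Among the 31 above background in at least 1 culture 67.7% were called, 7 higher (22.6%) and 14 lower (45.2%). Of all such genes 54.3% were called, 29.8% higher and 24.5% lower. The median difference of the members was -0.03, and that of all genes 0.14. Thus the share called over all 43 members was near that of all genes, and among the 31 above background it was larger than in all such genes. The members divided into 15 called lower in NSCPs, 7 called higher and 21 not called. Some of those not called, such as Traf3 and Traf4, were well above background in both cultures.

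**Figure D1:**
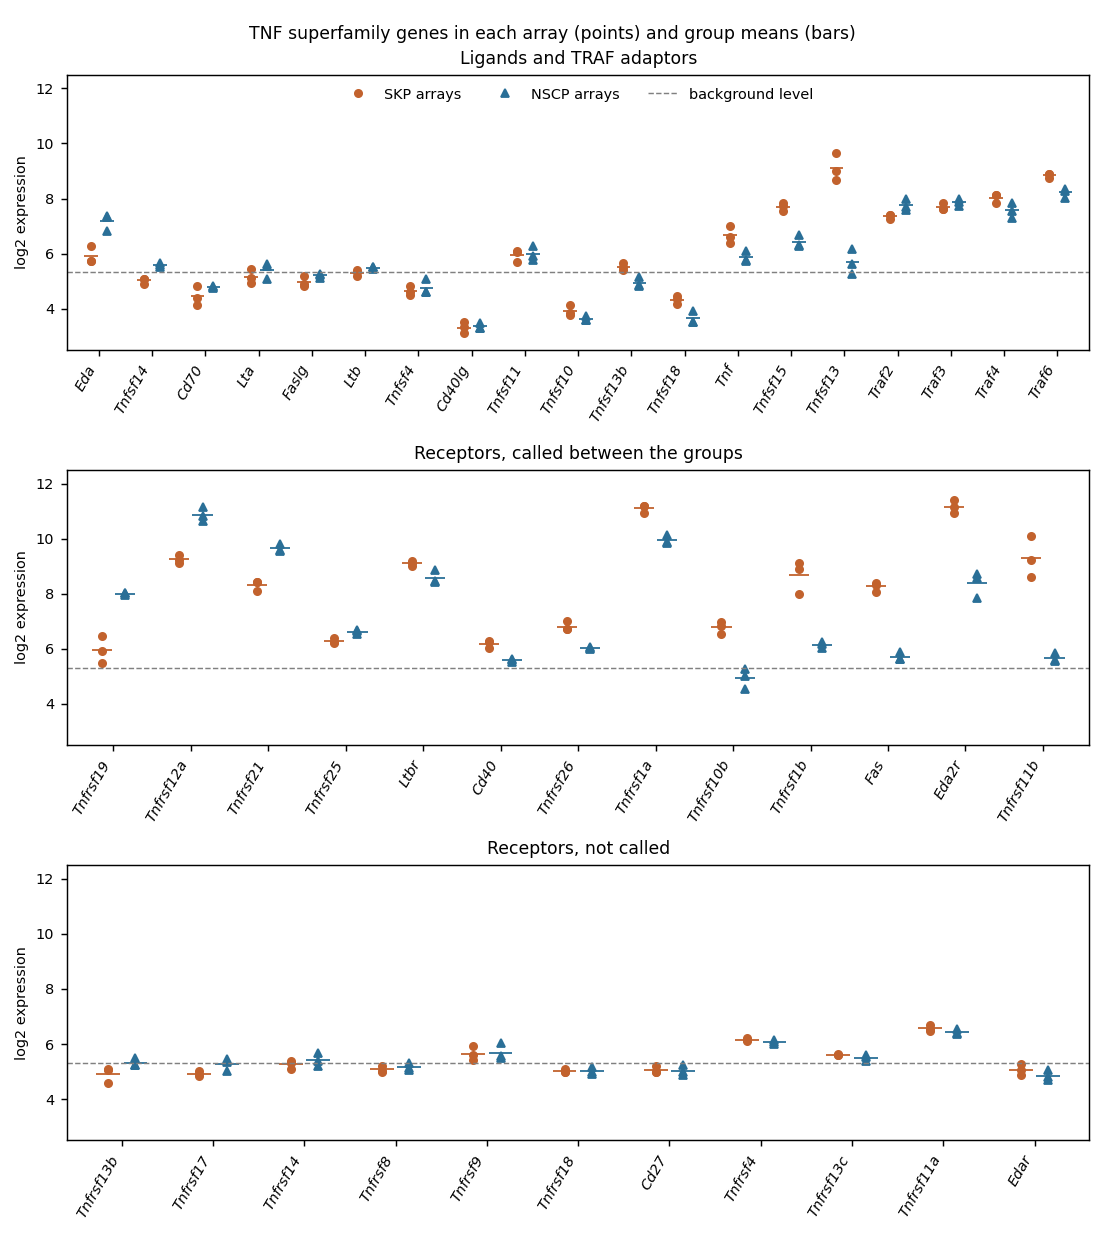
Log2 expression (vertical axis) of each member in 3 SKP arrays (circles) and 3 NSCP arrays (triangles), with bars at the group means and a dashed line at the background level of 5.32. Tnfsf13, Tnfrsf11b, Eda2r, Fas and Tnfrsf1b lie lower in NSCPs without overlap, Tnfrsf19, Tnfrsf12a, Tnfrsf21 and Eda lie higher, and many ligands lie near the dashed line in both.

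Promoter sequence is shown for 6 of the members that differed by at least 2-fold. Eda2r, Fas and Tnfrsf1b were lower in NSCPs, and Eda, Tnfrsf12a and Tnfrsf19 were higher. The 250 bases before the start of the gene are given 5′ to 3′ on the gene's strand (RefSeq, GRCr8): chrX:66280621-66280870, minus strand, for Eda2r; chr1:241211905-241212154, plus strand, for Fas; chr5:162387412-162387661, minus strand, for Tnfrsf1b. For the others they are chrX:69118570-69118819, plus strand, for Eda; chr10:13213649-13213898, minus strand, for Tnfrsf12a; and chr15:39334567-39334816, minus strand, for Tnfrsf19. Capitals mark an AP-1 match in Fas and Tnfrsf1b and a TATA match in Eda2r. Other lower members of at least 2-fold are not shown. Tnfsf13 and Tnfsf15 had no AP-1 match, Tnfrsf1a had no match to any motif searched, and Tnfrsf11b and Tnfrsf10b had no entry. The marks are therefore no comparison of lower with higher genes.
Eda2r: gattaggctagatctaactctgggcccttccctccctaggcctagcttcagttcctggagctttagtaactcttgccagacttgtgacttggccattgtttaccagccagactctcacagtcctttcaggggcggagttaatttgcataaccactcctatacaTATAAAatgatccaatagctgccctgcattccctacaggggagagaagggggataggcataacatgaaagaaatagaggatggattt
Fas: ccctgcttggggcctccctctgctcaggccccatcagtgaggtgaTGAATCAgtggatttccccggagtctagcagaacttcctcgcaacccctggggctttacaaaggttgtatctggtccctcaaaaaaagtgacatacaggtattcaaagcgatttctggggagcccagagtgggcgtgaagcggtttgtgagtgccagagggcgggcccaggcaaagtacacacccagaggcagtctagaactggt
Tnfrsf1b: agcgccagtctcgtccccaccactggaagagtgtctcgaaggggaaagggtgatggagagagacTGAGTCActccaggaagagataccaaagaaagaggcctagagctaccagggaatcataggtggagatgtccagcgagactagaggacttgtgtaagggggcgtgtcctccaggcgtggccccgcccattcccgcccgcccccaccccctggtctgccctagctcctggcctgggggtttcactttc
Eda: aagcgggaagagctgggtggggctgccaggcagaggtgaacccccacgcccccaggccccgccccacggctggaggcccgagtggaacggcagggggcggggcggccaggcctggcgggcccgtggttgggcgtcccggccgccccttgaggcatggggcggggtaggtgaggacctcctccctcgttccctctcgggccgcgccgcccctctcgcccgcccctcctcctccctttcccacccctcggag
Tnfrsf12a: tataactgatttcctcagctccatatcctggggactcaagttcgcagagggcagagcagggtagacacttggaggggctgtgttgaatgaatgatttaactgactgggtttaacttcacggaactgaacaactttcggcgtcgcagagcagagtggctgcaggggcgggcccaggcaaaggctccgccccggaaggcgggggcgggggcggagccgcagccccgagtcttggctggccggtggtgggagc
Tnfrsf19: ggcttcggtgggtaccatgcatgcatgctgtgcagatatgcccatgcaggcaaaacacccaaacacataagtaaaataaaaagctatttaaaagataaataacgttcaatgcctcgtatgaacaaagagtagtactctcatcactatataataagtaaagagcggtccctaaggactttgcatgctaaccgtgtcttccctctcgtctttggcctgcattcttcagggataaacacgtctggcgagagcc
In these windows 5 motifs were searched on both strands in the 33 members with an entry and in all 27457 promoters. AP-1 (TGANTCA) was found in Fas, Tnfrsf1b and Tnfrsf8, 3 of 33, against 6.36% of all promoters. Counted from the gene start, its match begins at position -205 in Fas and -186 in Tnfrsf1b, both lower in NSCPs, while Tnfrsf8 was within background in both cultures. The κB consensus motif was found in Lta, Ltb, Tnfrsf8, Tnfsf14 and Traf3, 5 of 33 against 3.52% of all, and of these only Tnfsf14 was called. The p53 half-site motif was found in 4 of 33 against 6.56%, namely Tnfrsf17, Tnfrsf4, Tnfsf13 and Tnfsf13b; the latter pair was lower in NSCPs. TATAAA was found in 8 of 33 against 13.1%, among them Tnf and Eda2r, and the cAMP response element TGACGTCA in 0 of 33 against 1.70%. Matches of different motifs overlapped in 0 cases. The GC share of these windows ran from 43.6% in Tnfrsf19 to 83.2% in Traf3 and was 76.8% in Eda. A match describes letters only and is no site of binding.

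Of the ligands 7 of 15 (46.7%) were called, 2 higher and 5 lower in NSCPs, near the 43.7% of all genes. In at least 1 culture 9 ligands were above background, and 6 were within it in both. Tnfsf13, which encodes APRIL, a survival factor for B lineage cells, had the largest difference among them. It stood at 9.66, 8.67 and 8.99 in the 3 SKP arrays and at 5.27, 5.62 and 6.15 in the 3 NSCP arrays. Every SKP culture was thus far above every NSCP culture, and of the NSCP cultures replicate 1 was within background. The difference was -3.43 (SE 0.29, adjusted p = 2.36e-05), or 10.8-fold lower. The neighbouring gene Tnfsf12 shares transcripts with Tnfsf13 in mammals, and its own level was not analysed here, so which of the transcripts the probes saw is uncertain.

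Tnfsf15, the gene of TL1A, a ligand that costimulates T cells, was at 7.73, 7.55 and 7.82 in SKPs and 6.26, 6.68 and 6.30 in NSCPs. All 6 values lay above background and the groups were separate, with a difference of -1.29 (SE 0.15, adjusted p = 1.75e-04). Tnf itself, the founding inflammatory cytokine of the family, was at 7.003, 6.38 and 6.59 in SKPs and 6.11, 5.72 and 5.76 in NSCPs, the highest value being that of SKP replicate 1. The NSCP level was the lower one, with a difference of -0.80 (SE 0.19, adjusted p = 0.00821), which is 1.74-fold. Tnfsf13b, which encodes BAFF, the close relative of APRIL, was at 5.66, 5.42 and 5.51 against 4.87, 5.15 and 4.83, just above background in SKPs and within it in NSCPs (-0.58, adjusted p = 0.00827). Tnfsf18, the gene of the GITR ligand, was called lower as well (-0.67, adjusted p = 0.00642), but both of its means, 4.32 and 3.66, were within background.

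In the other direction, Eda, which encodes ectodysplasin A, was higher in NSCPs. Its values were 5.72, 6.27 and 5.74 in SKPs and 6.83, 7.34 and 7.35 in NSCPs, so even the lowest NSCP culture was above the highest SKP culture. The difference was 1.26 (SE 0.20, adjusted p = 0.00105), or 2.40-fold. Tnfsf14, the gene of LIGHT, a ligand of the lymphotoxin β receptor, was within background in SKPs at 5.08, 5.09 and 4.91 and slightly above it in NSCPs at 5.60, 5.67 and 5.52 (difference 0.57, adjusted p = 0.00451).

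The remaining 8 ligands did not pass. Tnfsf11, which encodes RANKL, the ligand that drives osteoclast formation, was above background in both at 5.95 ± 0.22 in SKPs and 5.98 ± 0.27 in NSCPs (SD, n = 3 each), with a 95% interval of the difference from -0.37 to 0.43. Lta and Ltb, the lymphotoxin genes, had NSCP means of 5.42 and 5.49, barely above background, and SKP means within it. Cd70, Faslg, Tnfsf4, Cd40lg and Tnfsf10 were within background in both cultures, with group means from 3.32 for Cd40lg in SKPs to 5.22 for Faslg in NSCPs. Tnfsf10 encodes TRAIL and Faslg the Fas ligand, the death ligands of the family.

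Of the receptors 13 of 24 (54.2%) were called, 4 higher and 9 lower in NSCPs, where 43.7% of all genes were called, 25.2% higher and 18.6% lower. Those with a death domain that were lower are given first. Fas, the death receptor for Fas ligand, was at 8.32, 8.06 and 8.40 in SKPs and 5.64, 5.88 and 5.62 in NSCPs. The cultures within each group lay close together, and the NSCP values were only a little above background. The difference was -2.55 (SE 0.14, adjusted p = 1.86e-06), or 5.86-fold lower in NSCPs. Tnfrsf10b, which encodes the rat TRAIL receptor, was at 6.53, 6.98 and 6.83 in SKPs and 4.55, 5.02 and 5.28 in NSCPs, where all 3 cultures were within background. That gave a difference of -1.83 (SE 0.20, adjusted p = 1.28e-04), which rests on a background level.

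Tnfrsf1a, the gene of TNF receptor 1, which carries a death domain and is made by most cell types, was well above background throughout, at 11.20, 10.94 and 11.18 in SKPs and 9.87, 10.13 and 9.83 in NSCPs. It was 2.24-fold lower in NSCPs (difference -1.16, SE 0.14, adjusted p = 1.84e-04). Tnfrsf1b, the gene of TNF receptor 2, which lacks a death domain and is typical of leukocytes, differed more. Its values were 9.11, 8.003 and 8.90 in SKPs and 6.17, 6.03 and 6.24 in NSCPs, with SKP replicate 2 the lowest of the SKP cultures. The groups did not overlap, and the difference was -2.52 (SE 0.26, adjusted p = 8.11e-05), or 5.74-fold.

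Tnfrsf11b, which encodes osteoprotegerin, a secreted decoy for RANKL and TRAIL, had the largest difference of all members. In SKPs it was at 10.09, 8.61 and 9.22 and in NSCPs at 5.85, 5.60 and 5.57. SKP cultures spread over 1.48, yet the lowest of them was far above every NSCP culture. The difference was -3.63 (SE 0.32, adjusted p = 3.18e-05), or 12.4-fold lower in NSCPs. The NSCP values were only a little above background, so the size of this difference rests on a level near it. Tnfrsf11a, the signalling receptor RANK, did not pass, at 6.57 ± 0.12 in SKPs and 6.43 ± 0.11 in NSCPs (SD, n = 3 each; 95% interval -0.41 to 0.15). Of 6 listed osteoclast markers 3 were measured, and of these Ctsk, a collagen-degrading protease gene, was lower in NSCPs (-5.66), Calcr higher (0.86) and Atp6v0d2 not called.

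Eda2r, the receptor for the A2 form of ectodysplasin, was at 10.94, 11.15 and 11.39 in SKPs and 8.71, 7.84 and 8.57 in NSCPs, clearly above background in all 6 cultures. The difference of -2.78 (SE 0.23, adjusted p = 2.27e-05) corresponds to 6.87-fold lower expression in NSCPs, opposite in direction to its ligand gene Eda. Edar, the receptor for the A1 form, which acts in hair placodes, was within background in both cultures, with means of 5.06 and 4.85. Its adaptor gene Edaradd was at 5.92 and 5.89 and was not called.

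Smaller deficits in NSCPs were found for Tnfrsf26, Cd40 and Ltbr. Tnfrsf26, which belongs to a group of close rodent relatives and whose identity on the array is therefore uncertain, was at 6.997, 6.71 and 6.73 against 6.07, 5.98 and 6.05 (-0.78, adjusted p = 0.00118). Cd40, a costimulatory receptor of antigen-presenting cells, was at 6.02, 6.29 and 6.25 against 5.53, 5.62 and 5.58 (-0.61, adjusted p = 0.00382), low in both. Ltbr, the lymphotoxin β receptor of stromal cells, was at 9.004, 9.19 and 9.11 against 8.43, 8.85 and 8.46 (-0.52, adjusted p = 0.0193). Of the 3 genes only Ltbr lost its call when an array was left out. Its adjusted p was 0.0535 without SKP replicate 2, 0.0596 without SKP replicate 3, 0.0631 without NSCP replicate 1 and 0.0719 without NSCP replicate 3. It was 0.0873 with the arrays centred on their median.

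Receptors higher in NSCPs were led by Tnfrsf19, the gene of TROY, a receptor of the nervous system and of skin that can join the Nogo receptor complex. It was at 6.46, 5.47 and 5.91 in SKPs and 8.01, 8.03 and 7.96 in NSCPs. The NSCP cultures differed by no more than 0.07, while SKP cultures ranged over 0.99. The difference was 2.06 (SE 0.22, adjusted p = 1.11e-04), or 4.17-fold. Lingo1 and Rtn4r, partners of that complex, were not called (-0.11 and -0.28), and Ngfr, the other co-receptor, was higher in NSCPs by 2.19.

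Tnfrsf12a, which encodes Fn14, the receptor for TWEAK and an injury-induced gene in many tissues, was at 9.10, 9.40 and 9.23 in SKPs and 10.63, 11.14 and 10.81 in NSCPs. All cultures were well above background, and the NSCP cultures were 3.06-fold higher (difference 1.61, SE 0.16, adjusted p = 6.51e-05). Tnfrsf21, the gene of death receptor 6, which has a role in neurons and myelinating glia, was at 8.41, 8.10 and 8.41 against 9.59, 9.81 and 9.55. It was 2.53-fold higher in NSCPs (difference 1.34, SE 0.14, adjusted p = 8.72e-05). Thus the death-domain receptors went both ways, with Fas, Tnfrsf10b and Tnfrsf1a lower and Tnfrsf21 higher. Tnfrsf25, the death receptor for TL1A, was at 6.25, 6.40 and 6.22 against 6.52, 6.66 and 6.68 and barely passed (0.33, adjusted p = 0.0494). It was not called in any of the 6 fits with an array left out, where its adjusted p ran from 0.0522 without NSCP replicate 1 to 0.160 without SKP replicate 3 (0.130, 0.0532, 0.0790 and 0.139 without SKP replicates 1 and 2 and NSCP replicates 2 and 3).

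The other 11 receptors did not pass. Tnfrsf11a, Tnfrsf4, Tnfrsf9 and Tnfrsf13c were above background in both cultures, and Tnfrsf14 in NSCPs only, at 5.41. Tnfrsf13b, Tnfrsf17, Tnfrsf8, Tnfrsf18, Cd27 and Edar, mostly receptors of lymphocytes apart from Edar, were within background in both. The differences of these 11 ran from -0.21 for Edar to 0.40 for Tnfrsf13b (adjusted p = 0.0786).

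**Figure D2:**
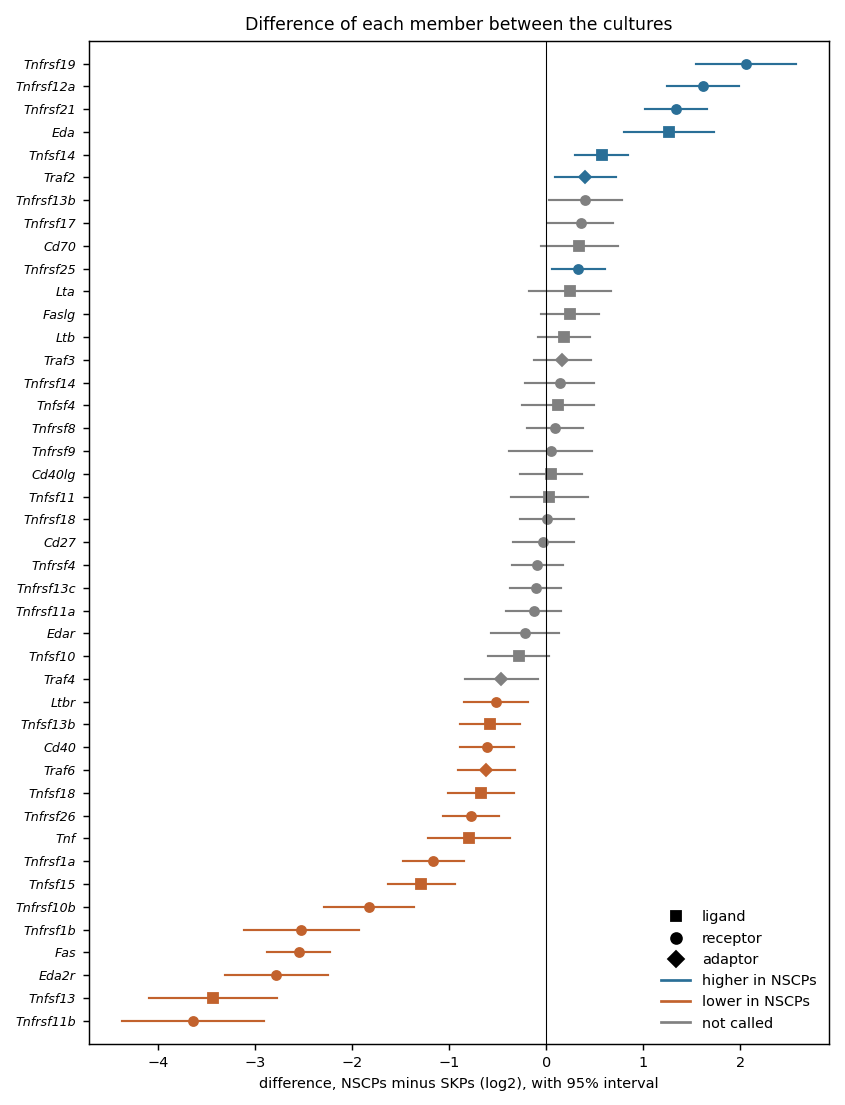
Difference of each member, NSCPs minus SKPs, on the log2 scale (horizontal axis), with its 95% interval from the fit over all genes. Squares are ligands, circles receptors and diamonds TRAF adaptors; the 7 members called higher run up to 2.06 for Tnfrsf19, the 15 called lower down to -3.63 for Tnfrsf11b, and the 21 others lie between -0.46 and 0.40.

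Of the TRAF adaptors, which link the receptors to kinases and ubiquitin ligases, all 4 were above background in both cultures and differed by less than 2-fold. Traf6, which also serves interleukin-1 and Toll-like receptors, was at 8.88, 8.76 and 8.87 in SKPs and 8.35, 8.02 and 8.29 in NSCPs (-0.62, SE 0.13, adjusted p = 0.00493). Traf2, an adaptor of both TNF receptors, was at 7.40, 7.27 and 7.38 against 7.70, 7.97 and 7.59, slightly higher in NSCPs (0.40, adjusted p = 0.0397). The call for Traf2 was lost without SKP replicate 1, 2 or 3 (adjusted p = 0.0715, 0.100 and 0.0907) and without NSCP replicate 1 or 2 (0.0665 and 0.0760). Traf4, at 7.83, 8.13 and 8.13 against 7.31, 7.84 and 7.55, narrowly missed the threshold (adjusted p = 0.0505) and passed it without SKP replicate 1 (0.0387) or NSCP replicate 2 (0.0198). Traf3, a brake on the alternative NF-κB route, did not pass (0.17, 95% interval -0.12 to 0.46).

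Ligands and receptors were then set side by side in 28 textbook pairs, of which 25 had both partners measured. Ligand and receptor were both above background in 7 pairs within SKPs and in 12 within NSCPs; ligand in NSCPs with receptor in SKPs gave 10 pairs, and ligand in SKPs with receptor in NSCPs gave 7. The same 6 pairs were above background within both cultures. The other 6 of the 12 pairs within NSCPs all rest on Lta, Ltb or Tnfsf14, ligands whose NSCP means of 5.42, 5.49 and 5.60 were barely above background, and 2 of them also on Tnfrsf14 at 5.41. Tnf with both of its receptors, RANKL with RANK and osteoprotegerin, TL1A with Tnfrsf25, and Eda with Eda2r were above background on both sides in both cultures. Each of these 6 pairs also rests on a low mean in at least 1 culture. In NSCPs the low means were Tnfrsf11b at 5.67, Tnf at 5.86, Tnfsf11 at 5.98, Tnfrsf1b at 6.15, Tnfsf15 at 6.41 and Tnfrsf11a at 6.43. In SKPs they were Eda at 5.91, Tnfsf11 at 5.95 and Tnfrsf25 at 6.29. With the 99th percentile of the odorant and vomeronasal receptor genes as background, the level would be 6.47, above all of these means. None of the 6 pairs would then be above background on both sides in both cultures. For Eda and Eda2r the ligand gene was higher in NSCPs by 1.26 and the receptor gene lower by a difference of -2.78. Eda had a single probe set, so whether the A2 form that Eda2r binds was present is uncertain. Fas was above background in both cultures while Faslg was within it in both. Tnfsf13 was above background in both cultures, and its receptor genes Tnfrsf13b and Tnfrsf17 were within it in both. For Fn14 the ligand gene Tnfsf12 was not analysed here. These pairs are levels of RNA, and contact between the cultures was not measured.

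**Figure D3:**
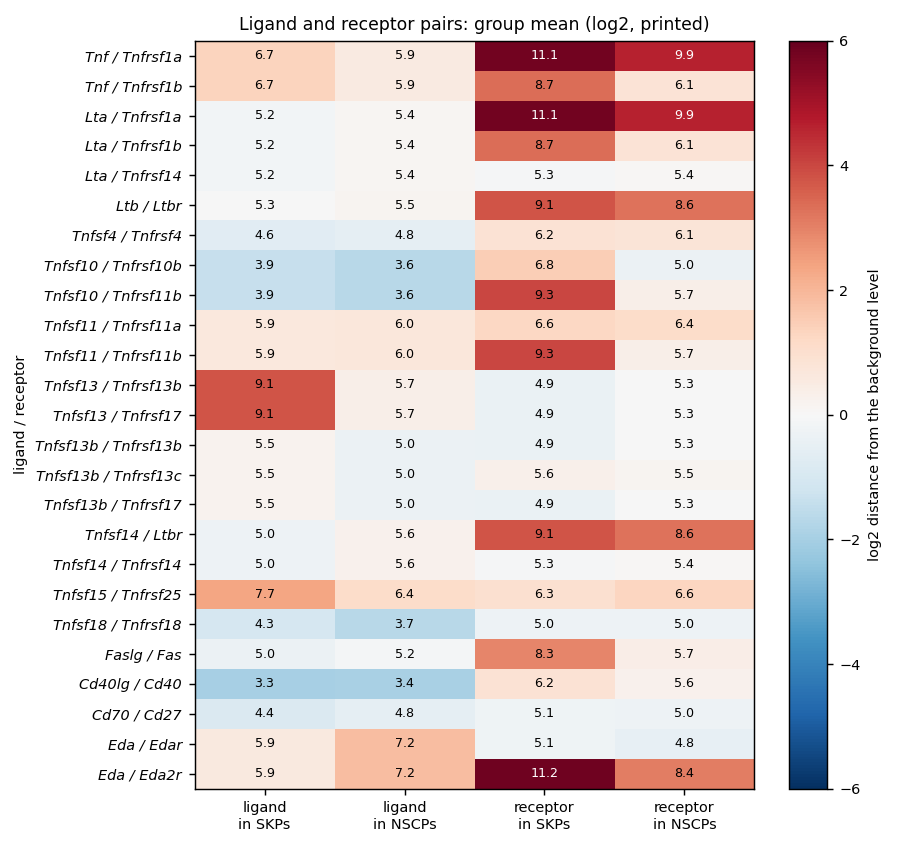
Group means (log2, printed in each cell to 1 decimal) of ligand and receptor in SKPs and NSCPs for the 25 pairs measured on both sides, coloured by their distance from the background level of 5.32. Red cells lie above it; Tnf, Tnfsf11, Tnfsf15 and Eda show red on both sides in both cultures with at least 1 receptor, while the ligands Faslg, Cd40lg and Tnfsf10 lie below it in both.

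Around the receptors, 4 lists of pathway genes were examined. They overlap, since Nfkbia, Nfkb2 and Relb are in both NF-κB lists and Birc3 is in the targets and the death machinery. Of 28 textbook NF-κB target genes measured, 17 were lower and 0 higher in NSCPs (against 18.6% of all genes lower), with a median difference of -1.22 where all genes had 0.14; at an unadjusted p under 0.05 limma gave 18 of the 28 in either direction. Ptgs2, the gene of cyclooxygenase 2, differed by -5.04, the matrix protease gene Mmp9 by -3.76 and the cytokine gene Il1b by -2.32, each with its NSCP mean within background. Macrophages make these 3 as well, and the macrophage markers given above moved in the same direction between the cultures. In SKP replicates 1, 2 and 3 the summed macrophage and leukocyte signal was 15.07, 14.16 and 14.48. Ptgs2 was there at 10.20, 10.19 and 10.60, Mmp9 at 8.33, 8.66 and 10.08, and Il1b at 7.46, 6.15 and 5.75. The part of macrophages in the list was not tested. Genes of the NF-κB core had 5 of 14 lower and 0 higher (median -0.25), led by the atypical inhibitor gene Nfkbiz (-1.87), the feedback inhibitor gene Nfkbia (-1.09) and Relb (-0.85), a subunit of the alternative route. At an unadjusted p under 0.05 limma gave 6 of these 14. Of all 18166 genes 9429 were under that p, the share to set beside both this list and the targets. The 5 called made up 35.7% of the core list, where 43.7% of all genes were called and 18.6% were lower. The genes of the subunit p65, Rela, and of the kinases Ikbkb and Chuk were not called (-0.24, -0.31 and 0.05).

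The death and adaptor machinery had 6 of 24 lower and 1 higher (median -0.25), so that 29.2% were called where 43.7% of all genes were, and 25.0% were lower against 18.6%. Birc3, an inhibitor of apoptosis induced by NF-κB, was lower by a difference of -1.72, with its NSCP mean of 4.81 within background, Bid, which carries the caspase signal to mitochondria, of -1.70, and Mlkl, the effector of necroptosis, of -1.34. Tab1, a partner of the kinase TAK1, was higher (0.44). The direct adaptors Fadd, Tradd and Ripk1 did not pass (0.11, -0.30 and -0.36). Genes of ligand shedding and processing had 5 of 10 lower and 3 higher (median -0.46). Lower were the convertase genes Pcsk5 (-1.09) and Furin (-0.99), of which Furin cuts ectodysplasin, APRIL and BAFF, and the protease gene Adam8 (-0.96). Higher were the membrane protease gene Sppl2b (1.05), Rhbdf1 (0.46) and Adam17, the Tnf sheddase (0.43). Among 9 relatives and partners outside the family rule, Ngfr and the receptor gene Relt (1.02) were higher, and Tnfaip8 (-0.66) and Trafd1 (-0.47) lower.

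**Figure D4:**
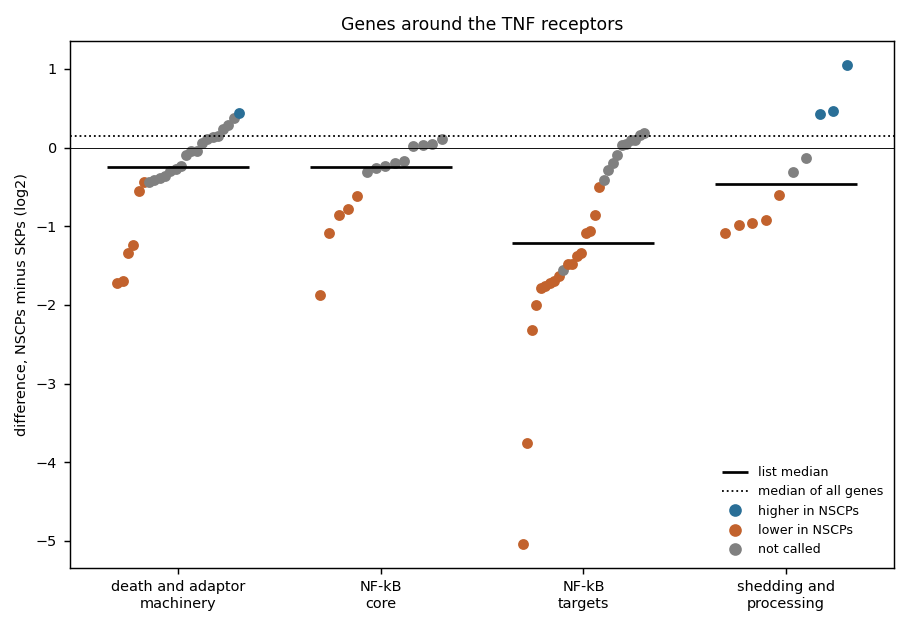
Difference, NSCPs minus SKPs (log2, vertical axis), of each measured gene in 4 pathway lists, coloured by call, with the list median as a bar and the median of all genes, 0.14, as a dotted line. NF-κB targets reach down to -5.04 for Ptgs2 with 0 genes called higher, while shedding genes lie on both sides.

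SKP cultures differed among themselves in several members. The summed macrophage and leukocyte signal was 15.07, 14.16 and 14.48 (log2) in SKP replicates 1, 2 and 3, an order with replicate 1 first and replicate 2 last. Of the 27 members above background in SKPs, 11 (40.7%) had that same order, against 24.6% of all genes above background there. Of these 11, the 5 with the widest SKP spread were Tnfrsf11b, Tnfrsf1b, Tnfsf13, Tnfrsf19 and Tnf, the last ranging over 0.62. Without SKP replicate 1 their differences were -3.24, -2.30, -3.15, 2.32 and -0.62, and all 5 were still called. The other 16 members had other orders. In Fas replicate 3 was the highest and replicate 2, the lowest in the macrophage signal, was also the lowest, and in Eda2r replicate 3 was the highest and replicate 1 the lowest. Of the pathway genes above background in SKPs, the order of the macrophage signal was found in 13 of 23 of the death and adaptor machinery (56.5%), 11 of 14 of the NF-κB core (78.6%), 12 of 26 NF-κB targets (46.2%) and 4 of 10 shedding genes (40.0%). Birc3, Nfkb2, Nfkbia and Relb each had that order and are counted in both of their lists. The part of macrophages in the levels of these members and pathway genes was not tested.

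**Figure D5:**
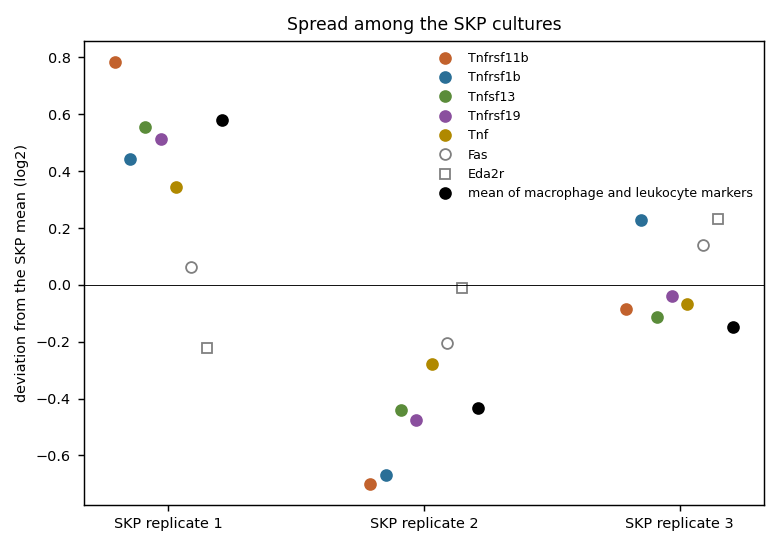
Deviation of each SKP culture from the SKP mean (log2, vertical axis) for the 5 members with the widest spread in the order replicate 1, 3, 2 (filled colours), Fas and Eda2r (open symbols) and the mean of 15 macrophage and leukocyte markers (black). The filled points and the black point are high in replicate 1 and low in replicate 2; the open points are highest in replicate 3.

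Position in the genome was compared next, from RefSeq annotation of GRCr8, used only for which genes neighbour each other. Of 42 members placed, 15 lay in 6 groups with gaps of at most 300 kb. In 5 of these groups a called member stood beside members that were not called. Tnf lies between Lta and Ltb, and Tnf was called lower (-0.80) while Lta (0.25) and Ltb (0.18) were not called. Tnfrsf1b was lower (-2.52) beside Tnfrsf8 (0.09, within background). Tnfrsf1a and Ltbr were both lower, and their neighbour Cd27 was within background in both cultures. Tnfrsf1a and Ltbr were the only called members that shared a group, so the other groups could not show calls in opposite directions.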

How the data were processed

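Total RNA of 6 cultures, 3 SKP and 3 NSCP, was made into cDNA from 400 ng with a whole-transcript kit and measured on 1 array each, per the labels' protocols. The deposited values are log2 expression per probe set, for which the submitters' processing notes name oligo and RMA, without versions; the log2 scale of the deposited numbers was read from their range. RMA corrects background, sets all arrays to 1 distribution and summarises probes, so a shift of most genes in 1 group would not be seen. Of 36685 probe sets, 18511 had a single platform symbol, 575 several and 17599 none. The brightest probe set per gene left 18166 genes; each member had a single one. Symbols were updated through RefSeq (GRCr8), which matched 18394.

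Values were used as deposited. Groups were compared with limma 3.58.1 in R 4.3.3 (lmFit, eBayes; 2-sided). Adjusted p-values are Benjamini-Hochberg values over the 18166 genes. Differences are NSCPs minus SKPs. The fit was tested on simulated data. No detection calls or scan batches were used, and with 3 arrays a group their number limits the precision. Lists were described by counts and medians, with no set test. Members, lists, pairs and motifs were chosen with earlier results of these data known. Members called with a mean above background are given in every array; from each pathway list up to 3 called genes per direction are named, and a few others were named after their values were seen. Alternatives were each array left out, the replicate number as a block, other scalings, a filter, priors, weights and thresholds. Figures were drawn with matplotlib 3.10.9.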

Additional observations from a re-analysis of the deposited data

How the results depend on the processing

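Of the 22 called members 19 passed in all 6 fits with an array left out and in every other alternative that tested them; Ltbr, Tnfrsf25 and Traf2 did not, and 0 called members changed direction in any alternative. With an array left out, 19 to 21 members were called, 5 to 6 higher and 14 to 16 lower. Of the 21 members not called, 9 passed in at least 1 alternative, all with differences under 2-fold there. Centring the arrays on their medians gave 13 members higher; renewed quantile normalization gave 7 higher and 16 lower. Members within background in both groups numbered 12 at the 95th percentile of the receptor genes, 5 at the 90th and 22 at the 99th. The replicate numbers are not said to mark shared litters or days, and deviations of same-numbered arrays correlated at 0.0372, 0.0501 and 0.0283, although each of the 6 arrays correlated best with its own number. With the replicate block 21 members were called, 5 higher and 16 lower: Traf2 and Tnfrsf25 were lost (adjusted p = 0.0663 and 0.0709) and Traf4 was gained (0.0287). Dim genes give only a bound near background. Leaving out dim genes left Tnfsf18 untested.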

Other observations

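A related family was looked at after the members' values were seen. C1q/TNF-related proteins are secreted and share the fold of the TNF ligands. Of 9 such genes measured, 4 were lower and 3 higher in NSCPs in limma, against 18.6% and 25.2% of all genes. C1qtnf6 was lower by a difference of -3.84 (adjusted p = 1.96e-06), at 10.58 ± 0.43 in SKPs and 6.75 ± 0.19 in NSCPs (SD, n = 3 each). C1qtnf1 (-3.11), C1qtnf7 (-2.49) and C1qtnf5 (-1.38) were lower too, C1qtnf7 with its NSCP mean within background. C1qtnf12 was higher (1.46), as were C1qtnf9 (0.53) and C1qtnf4 (0.48) by less than 2-fold.

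Genes named as TNF-α-induced proteins went both ways as well, with 3 of 6 lower and 2 higher, against 18.6% and 25.2% of all genes. They were picked by name and not by their response to TNF. Tnfaip8 and its like-named relatives Tnfaip8l1, Tnfaip8l2 and Tnfaip8l3 are among them, and Tnfaip3 was not measured. Tnfaip8l2, which is known from immune cells, was lower (-2.18), and so were Tnfaip2 (-1.70) and Tnfaip8 (-0.66). Tnfaip1 was higher in NSCPs (1.08), as was Tnfaip8l1, by more than 2-fold each. Of the 15 macrophage and leukocyte markers 14 moved the same way as these lower genes, and their part in these differences was not tested.

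Markers of further cell types were given no comparison above. Of 6 dendritic cell markers 4 were lower and 1 higher in NSCPs, of 6 melanocyte markers 2 and 2, and of 7 pericyte and muscle markers 2 and 0 (3 of the 7 at an unadjusted p under 0.05 in limma, in either direction). Of 4 endothelial markers 1 was higher, and of 4 keratinocyte markers 0 were called by limma, with 1 at an unadjusted p under 0.05. Of all 18166 genes 18.6% were called lower and 25.2% higher, and 9429 were at an unadjusted p under 0.05. All 4 measured endothelial markers were within background in both cultures.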
